A study of Mus musculus with 15 samples.

Results

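The amino acid transporter families of mouse embryonic stem cells (Slc1, Slc3, Slc6, Slc7, Slc36, Slc38 and Slc43) were followed by RNA sequencing through loss of the cytokine LIF and through hyperosmotic stress with sorbitol. Members were all genes whose symbols carry these family prefixes, except Slc6a6, Slc6a12 and Slc38a2, with at least 15 counts summed over all libraries. Of 56 matching symbols 34 met this minimum, among 21516 genes in the tables. The other 22 reached at most 12 counts in all, and 3 of them had 0 counts in every library. The rule uses the symbol and the total count, not a difference between groups.

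The cells were a reporter line named REX-1 RFP, in which the Rex1 (Zfp42) promoter drives a red fluorescent protein. Every group was first grown with leukaemia inhibitory factor (LIF) and then held for 72 h in its own condition. The NS group (normal stemness) kept LIF with no sorbitol, and the ND group (normal differentiation, per the labels) had no LIF. The remaining groups kept LIF and received sorbitol at 200, 250 or 300 mM. With 3 libraries in each group, which the labels call biological triplicates, 15 libraries of a single line were compared. Libraries were made by a QuantSeq 3′ protocol, which gives about 1 tag per transcript, so counts do not scale with transcript length and levels of different genes could be set side by side. Levels are given as CPM (a library's counts scaled to a common total with TMM factors), and the errors of group means are SDs over 3 libraries.

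As background, amino acid carriers fall into groups by what drives them. Slc7 light chains such as Slc7a5 exchange amino acids across the membrane and need the heavy chain Slc3a2 (CD98hc) to reach it, whereas the cationic carriers Slc7a1, Slc7a2 and Slc7a3 work without a heavy chain and bring in arginine and lysine. Slc1 and Slc38 carriers use the sodium gradient to accumulate glutamate or small neutral amino acids, and Slc36 carriers use protons. Neutral amino acids taken up by the Slc38 system A carriers also serve mammalian cells as compatible osmolytes under hypertonic stress, and several of these genes are known targets of the stress factor ATF4.

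Total counts per library ran from 968556 to 2289528, with replicate 1 the deepest library of each group, and 3 counts equalled 1.31 to 3.10 CPM. The cells carried the markers of undifferentiated stem cells in all groups, with 11 markers summing to 2579 to 3274 CPM in NS, 1487 to 2616 in ND and 2632 to 3393 at 300 mM. In the test described below, 2 of these 11 passed downward in ND against NS, beside 0.0319% of all genes. At each sorbitol dose 0 passed against NS. Against ND, 3 were higher with sorbitol, beside 4.62% of all genes. Trophoblast markers (10 genes) summed to 45.4 to 75.8 CPM in NS, 96.7 to 169 in ND, 152 to 445 at 200 mM, 372 to 512 at 250 mM and 310.4 to 460.2 at 300 mM, with Cdx2 at 0 in all NS and ND libraries. Of the 8 trophoblast markers tested, 3, 6 and 6 passed upward against NS at the rising doses, where 0.405, 2.01 and 3.23% of all genes did. Primitive endoderm markers (10 genes) summed to 42.04 to 52.7 CPM in NS, 33.4 to 61.1 in ND, 73.2 to 128 at 200 mM, 108 to 169 at 250 mM and 149 to 205 at 300 mM, and feeder fibroblast markers stayed at or under 13.6 CPM in every library. Of the 6 primitive endoderm markers tested, 1, 3 and 3 passed upward at the same doses. The trophoblast and primitive endoderm sums, like the summed transporter level given below, were higher in all sorbitol libraries than in NS. The trophoblast sum was higher in ND than in NS as well, whereas the summed transporter ranges of ND and NS overlapped. The part of these cell types in the transporter results was not tested. In bulk RNA, a change in the number of cells of a type and a change in RNA per cell cannot be told apart.

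A few carriers made up a large share of the transporter RNA. Averaged over all libraries, Slc38a4 stood at 398 CPM, Slc7a3 at 309, the heavy chain Slc3a2 at 272, the creatine carrier Slc6a8 at 175 and Slc7a1 at 146. The order differed between groups. In NS the means were 301 ± 36.6 CPM for Slc38a4, 244 ± 91.3 for Slc3a2 and 161 ± 37.2 for Slc7a3. In ND Slc3a2 had the highest mean (319 ± 95.6, against 260.0 ± 35.2 for Slc38a4), and at 300 mM Slc7a3 had it (479 ± 132, against 449 ± 20.5 for Slc38a4), with library ranges that overlapped in both cases. Slc38a4, Slc7a3 and Slc3a2 together took 41.1 to 55.4% of the member counts of a library. In all, 14 members averaged 20 CPM or more, and 22 were detected in every library. The summed level of the 34 members was 1434 to 1678 CPM in NS, 1306 to 1717 in ND, 1777 to 2151 at 200 mM, 2375 to 2393 at 250 mM and 2102 to 2488 at 300 mM. All 9 sorbitol libraries lay above all 6 libraries without sorbitol. Among the sums of single families, that of the Slc38 members alone separated in this way (at most 593 CPM without sorbitol and at least 709 with it).

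**Figure D1:**
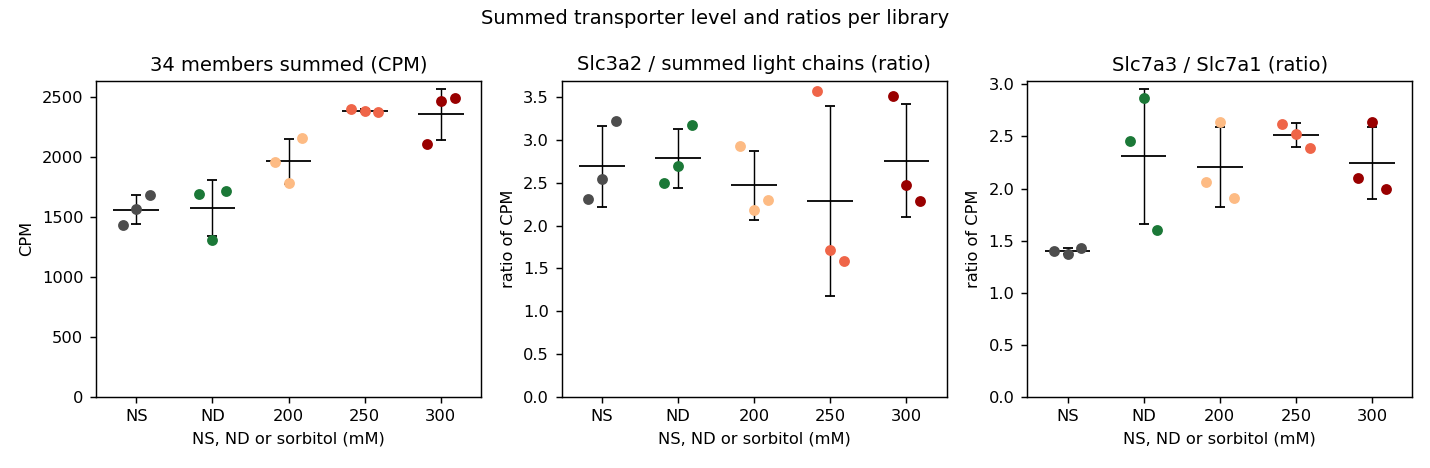
Summed CPM of the 34 transporter genes, the ratio of Slc3a2 to its light chains and the ratio of Slc7a3 to Slc7a1 in each library (points), with the group mean (line) and SD (bar, n = 3). The summed level is at most 1717 CPM in NS and ND libraries and at least 1777 CPM in sorbitol libraries, and the Slc7a3 to Slc7a1 ratio is lowest in the 3 NS libraries.

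Differences between groups were tested with edgeR's quasi-likelihood test in 1 fit of all 15 libraries, with Benjamini-Hochberg adjustment over 9390 genes and a threshold of 0.05, and 22 members had enough counts to enter it. LIF withdrawal moved none of them past the threshold, at a background of 0.0319% of all genes called, and 0 members against 600 of all genes had an unadjusted p under 0.05. DESeq2 also called 0. At 200 mM sorbitol 0 members passed, against 0.586% of all genes (0.405% higher and 0.181% lower), while 4 members (Slc1a1, Slc1a6, Slc7a3 and Slc38a4) and 1031 genes in all had an unadjusted p under 0.05. NS and 200 mM libraries of the same replicate number deviated together, though only weakly for replicate 2 (correlations of 0.69, 0.12 and 0.63). With the number as a block Slc1a1 rose and Slc1a6 fell past the threshold (edgeR adjusted p = 0.0246 and 0.0357), in a fit that called 2.85% of all genes. That fit also blocked groups whose numbers did not pair with NS. DESeq2 called both without a block, with 1.71% of all genes. At 250 mM Slc7a3 and Slc38a4 rose and Slc1a6 fell, which is 13.6% of the tested members beside 4.47% of all genes. Of all genes 2.01% were called higher and 2.46% lower at this dose. At 300 mM Slc7a3 and Slc1a1 rose and Slc1a6 and Slc7a4 fell, which is 18.2% beside 7.89%, with 3.23% of all genes called higher and 4.66% lower. Within replicates 2 and 3, the shallower libraries of each group, 0 members passed at 250 mM (0.297% of all genes) and 1, Slc7a3, at 300 mM (1.23%). Against ND, 4 passed within these replicates (Slc1a4, Slc6a8, Slc7a3 and Slc38a4, all higher with sorbitol), beside 4.28% of all genes, and replicate 1, alone, could not be tested. The comparisons share the NS libraries, so their calls are not independent of one another.

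**Figure D2:**
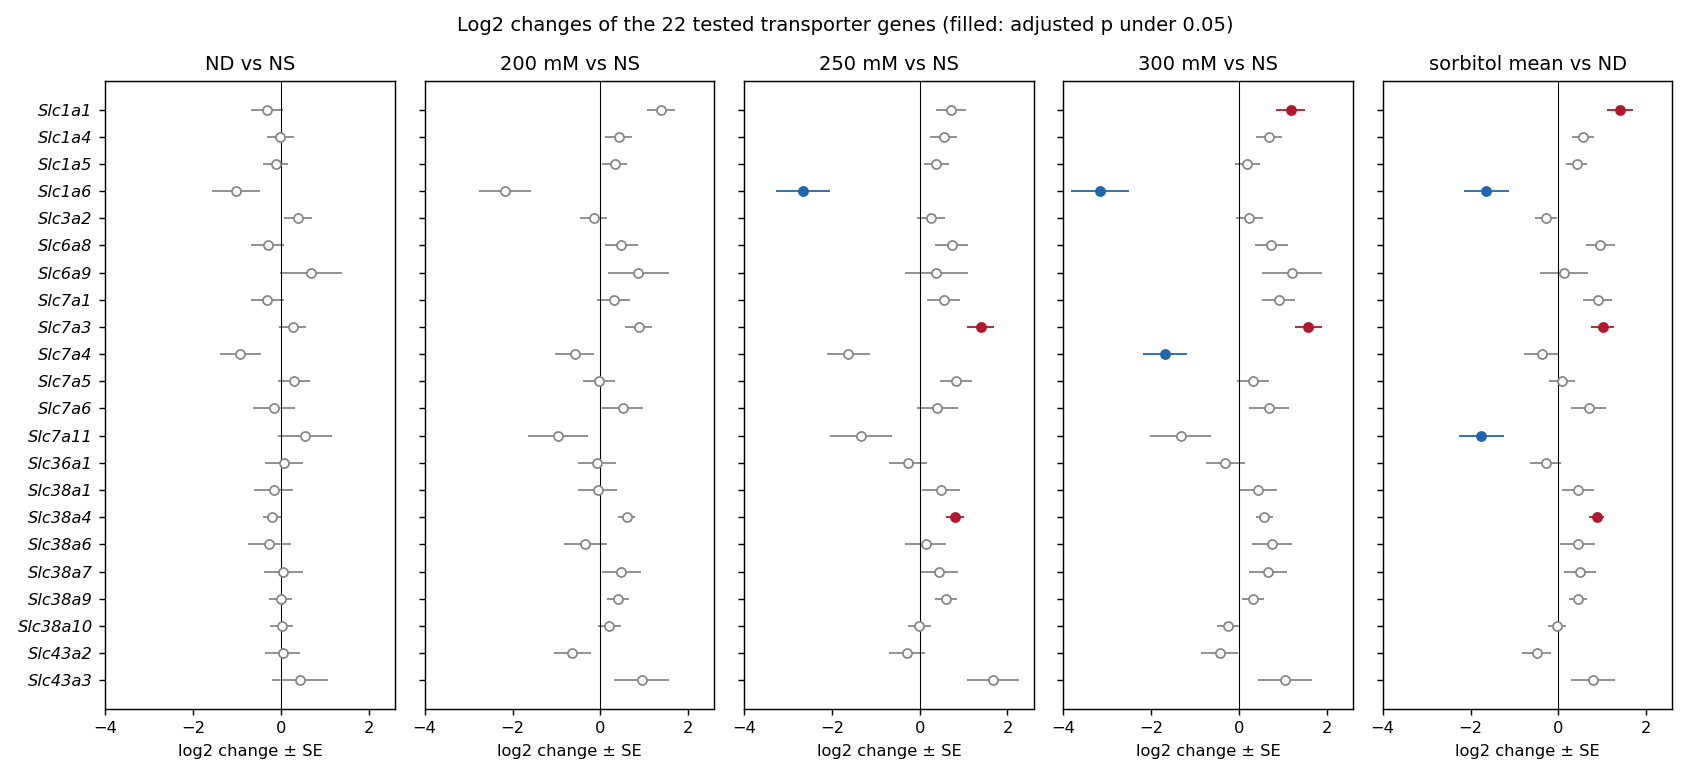
Log2 change of the 22 tested transporter genes in each comparison, grouped by family, with changes past the threshold marked. The median member change is 0.42 at 250 mM and 0.51 at 300 mM against NS, beside -0.01 and -0.01 for all tested genes.

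The median log2 change of the tested members was -0.01 for ND against NS, 0.31 at 200 mM, 0.42 at 250 mM and 0.51 at 300 mM, while the median of all tested genes lay between -0.01 and 0.01. Positive values were found for 10 of 22 members in ND, 13 at 200 mM and 16 at both higher doses. The same 6 members were negative at 250 and at 300 mM, namely Slc1a6, Slc7a4, Slc7a11, Slc36a1, Slc38a10 and Slc43a2. The libraries of the groups compared did not overlap for 2 members in ND (8.36% of all genes), 4 at 200 mM (12.4%), 11 at 250 mM (27.9%) and 10 at 300 mM (27.8%). Against the mean of the sorbitol groups, where both LIF and sorbitol differ, ND differed in 5 members (22.7% of those tested, beside 10.5% of all genes). Slc1a1, Slc38a4 and Slc7a3 were higher with sorbitol, as were 4.62% of all genes, and Slc1a6 and Slc7a11 were lower, as were 5.85%. Sorbitol and ND libraries did not overlap for Slc1a1 and Slc38a4, beside 8.56% of all genes. A log2 slope per 50 mM over the 9 sorbitol libraries passed for 0 of 19 members, at 0.101% of 8928 genes. Slc7a3 (0.35 ± 0.14, edgeR adjusted p = 0.355) and Slc38a6 (0.54 ± 0.22, adjusted p = 0.363) were the only members with an unadjusted p under 0.05 for the slope, against 1025 genes in all, and DESeq2 called 0 members.

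Among the cationic carriers, Slc7a3 (CAT3), an arginine and lysine carrier, had the highest log2 change against NS of the members that passed upward. Slc7a3 came to 129, 152 and 202 CPM in NS replicates 1, 2 and 3 and 236, 127 and 214 in ND. In sorbitol Slc7a3 was at 249.9, 212 and 421 CPM at 200 mM, 403, 455 and 403 at 250 mM and 326, 561 and 549.9 at 300 mM. Each library at 250 and 300 mM lay above every NS and ND library, and the 200 mM libraries lay above NS but reached down into the ND range. The mean was 161 ± 37.2 CPM in NS and 479 ± 132 CPM at 300 mM (SD, n = 3). Slc7a3 rose by a log2 change of 1.39 ± 0.31 (SE) at 250 mM and 1.58 ± 0.31 at 300 mM (edgeR adjusted p = 0.0195 and 0.00752), and the change at 200 mM was 0.87 ± 0.31 (adjusted p = 0.26). It was also higher in the sorbitol groups than in ND, by 1.01 ± 0.26 (adjusted p = 0.0207), a call lost without ND replicate 2 (adjusted p = 0.136). The 300 mM call held without any single NS or 300 mM library, whereas the 250 mM call was lost without any of 5 of the 6 libraries compared, all but NS replicate 3 (adjusted p = 0.0569 to 0.0982).

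**Figure D3:**
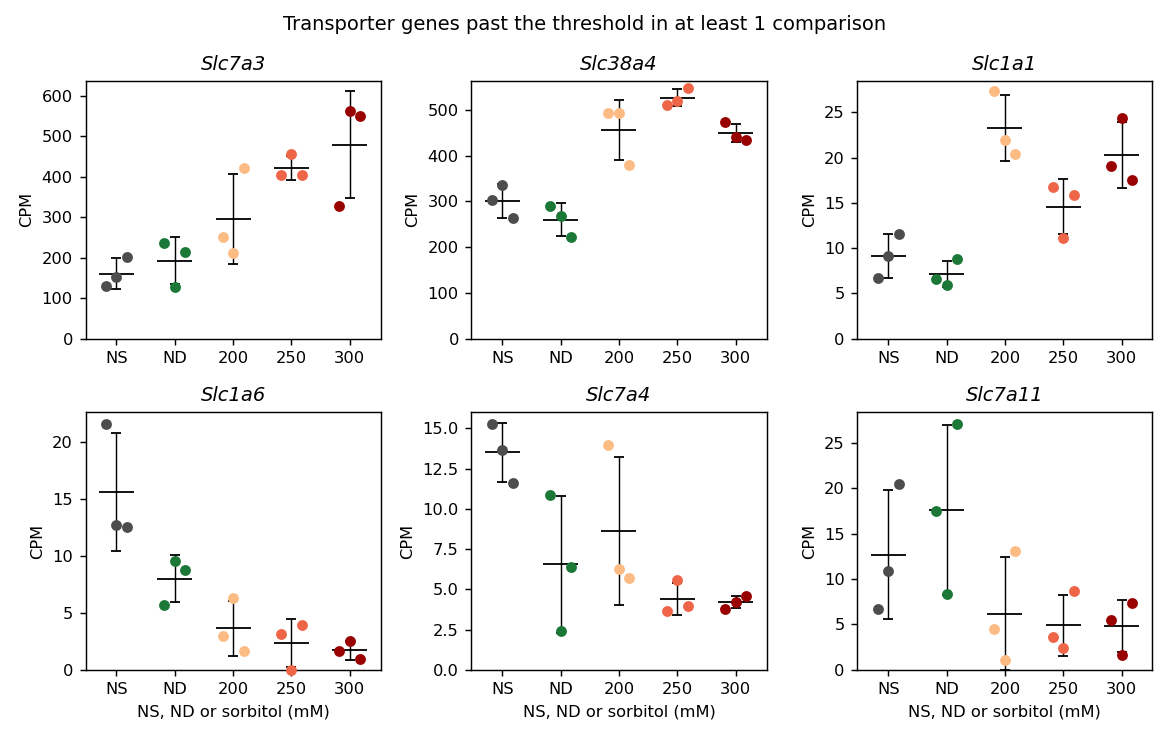
CPM of the 6 transporter genes past the threshold in at least 1 comparison, in each library (points), with the group mean (line) and SD (bar, n = 3). Slc7a3 and Slc38a4 are higher in every 250 and 300 mM library than in any NS or ND library, and Slc1a6 is highest in the 3 NS libraries.

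Slc7a1 (CAT1), the widely expressed member of the same branch, was measured at 92.2, 111 and 141 CPM in NS and 96.1, 44.2 and 134 in ND. In sorbitol Slc7a1 was at 121, 80.6 and 220.5 CPM at 200 mM, 154, 180.2 and 169 at 250 mM and 155, 212 and 275 at 300 mM. Its 250 and 300 mM libraries lay above the NS libraries, with log2 changes of 0.55 ± 0.37 and 0.90 ± 0.37, but neither passed the test (edgeR adjusted p = 0.403 and 0.147). Against ND the sorbitol groups differed by 0.90 ± 0.32 (adjusted p = 0.087), which passed with the replicate block (0.00776), without a low count filter (0.0164) and with DESeq2 (0.0465). The 300 mM change against NS passed with the block alone (edgeR adjusted p = 0.0234), in a fit that called 19.9% of all genes. Slc7a4, a CAT-related protein without established carrier activity, was at 15.3, 13.6 and 11.6 CPM in NS and 10.9, 2.39 and 6.37 in ND. In sorbitol Slc7a4 was at 13.9, 6.28 and 5.72 CPM at 200 mM, 3.67, 5.56 and 3.96 at 250 mM and 3.81, 4.21 and 4.61 at 300 mM. The NS libraries were the highest as a group and did not overlap with ND, 250 mM or 300 mM. Slc7a4 fell at 300 mM, with a log2 change of -1.69 ± 0.50 (edgeR adjusted p = 0.0467), against -1.63 ± 0.49 at 250 mM (adjusted p = 0.0654) and -0.92 ± 0.46 in ND (adjusted p = 0.772). The 300 mM call was lost without any of 5 of the 6 libraries, all but NS replicate 3 (adjusted p = 0.114 to 0.156). Slc7a2 (CAT2), too low to be tested, had 0 counts in NS, 2 in ND, 7 at 200 mM, 15 at 250 mM and 4 at 300 mM, summed over the 3 libraries of each group. The tables give Slc7a1, Slc7a2 and Slc7a3 the same Ensembl identifier, so these genes are identified here by their symbols.

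In the sodium-coupled Slc38 family, Slc38a4 (SNAT4), an imprinted system A carrier of small neutral amino acids, was measured at 302, 336 and 263 CPM in NS and 290.2, 269 and 221 in ND. In sorbitol Slc38a4 was at 493, 494 and 379.7 CPM at 200 mM, 511, 520.0 and 546 at 250 mM and 472, 441 and 434 at 300 mM. Every sorbitol library lay above every NS and ND library. Slc38a4 rose at 250 mM by 0.81 ± 0.20 on the log2 scale (edgeR adjusted p = 0.03), and the changes at 200 and 300 mM were 0.60 ± 0.20 and 0.58 ± 0.20 (adjusted p = 0.222 and 0.0808). The 300 mM value passed with DESeq2 (adjusted p = 0.0212) and when scaled by library totals alone (0.0451). The 250 mM call was lost without any of 5 of the 6 libraries, all but NS replicate 3 (adjusted p = 0.08 to 0.11). Against ND the sorbitol groups were higher by 0.87 ± 0.17 (adjusted p = 0.00354), and this call held without any single library. The mean was 301 ± 36.6 CPM in NS, 260.0 ± 35.2 in ND and 526 ± 18.5 at 250 mM (SD, n = 3).

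Slc38a4 has 3 annotated starts, whose upstream windows of 250 bases hold 0, 1 and 2 matches, counted on both strands, to TGGAAA. The window shown was chosen because it holds the 2 matches to these letters, the core of the tonicity-responsive element bound by the osmotic stress factor NFAT5. The window is chr15:97055957-97056206, minus strand, of GRCm38.p6 from RefSeq, written 5′ to 3′ with the matches in capitals.
Slc38a4: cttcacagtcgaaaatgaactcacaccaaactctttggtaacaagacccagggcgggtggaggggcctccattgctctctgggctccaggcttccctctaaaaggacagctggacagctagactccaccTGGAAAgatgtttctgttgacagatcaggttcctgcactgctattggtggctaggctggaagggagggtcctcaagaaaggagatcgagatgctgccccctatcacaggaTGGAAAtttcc
The matches lie 121 to 116 and 11 to 6 bases before the start, both on the gene's strand. The core was found on either strand in 18.6% of all 32851 upstream windows of this length and in 22.9% of the 35 windows of the 22 members that had one (Slc38a4, Slc38a6, Slc38a7, Slc43a2, Slc6a13 and Slc7a7). A match describes the letters of the window and is not a measured binding site.

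The other Slc38 members did not pass any comparison in the fit of all 15 libraries. Slc38a1 (SNAT1), a system A carrier of glutamine, stood at 77.4, 91.8 and 175 CPM in NS and 119.8, 29.8 and 151 in ND. In sorbitol Slc38a1 was at 86.1, 72.2 and 169 CPM at 200 mM, 174, 157 and 149 at 250 mM and 129, 167 and 168 at 300 mM, and ND replicate 2 was the lowest of all libraries. Its log2 change was 0.49 ± 0.44 at 250 mM and 0.44 ± 0.44 at 300 mM (edgeR adjusted p = 0.536 and 0.588). Slc38a9, the lysosomal arginine sensor upstream of mTORC1, spanned 23.6 to 33.9 CPM in NS and 38.9 to 43.5 at 250 mM, where the groups did not overlap (log2 change 0.60 ± 0.25, adjusted p = 0.175). Slc38a10, a broadly expressed family member, was at 95.5, 85.4 and 80.3 CPM in NS and 109, 79.98 and 73.2 in ND. In sorbitol Slc38a10 was at 93.1, 124 and 85.7 CPM at 200 mM, 76.99, 74.6 and 109 at 250 mM and 57.1, 74.98 and 90.3 at 300 mM, and its slope over dose was the lowest of the members at -0.23 ± 0.12 (adjusted p = 0.514). Slc38a6 was at 4.78, 5.45 and 7.14 CPM in NS and 4.26, 2.39 and 7.16 in ND. In sorbitol Slc38a6 was at 4.48, 2.09 and 6.53 CPM at 200 mM, 6.81, 6.35 and 5.54 at 250 mM and 8.704, 8.42 and 11.97 at 300 mM, with no overlap between NS and 300 mM (log2 change 0.75 ± 0.45, adjusted p = 0.326). Slc38a7, a lysosomal glutamine carrier, spanned 19.6 to 32.7 CPM in NS and 27.6 to 53.9 at 300 mM.

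In the Slc1 family, a pair of glutamate carriers moved in opposite directions. Slc1a1 (EAAT3), which also carries aspartate and cysteine, was measured at 6.69, 9.09 and 11.6 CPM in NS and 6.63, 5.97 and 8.75 in ND. In sorbitol Slc1a1 was at 27.4, 21.97 and 20.4 CPM at 200 mM, 16.8, 11.1 and 15.8 at 250 mM and 19.04, 24.4 and 17.5 at 300 mM. The 200 and 300 mM libraries lay above all NS and ND libraries, and the 250 mM libraries lay above ND but overlapped with NS. Slc1a1 rose at 300 mM by 1.18 ± 0.33 on the log2 scale (edgeR adjusted p = 0.0377) and was higher with sorbitol than in ND by 1.41 ± 0.29 (adjusted p = 0.00554). The value at 200 mM was 1.39 ± 0.33 (adjusted p = 0.0654, or 0.0246 with replicates as a block), and at 250 mM it was 0.71 ± 0.33 (adjusted p = 0.22). The 300 mM call was lost without any of 5 of the 6 libraries, all but NS replicate 3 (adjusted p = 0.0699 to 0.179), and the call against ND held without any single library.

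Slc1a6 (EAAT4), known as a glutamate carrier of cerebellar Purkinje cells, went the other way, at 21.5, 12.7 and 12.5 CPM in NS and 5.68, 9.55 and 8.75 in ND. In sorbitol Slc1a6 was at 2.99, 6.28 and 1.63 CPM at 200 mM, 3.14, 0 and 3.96 at 250 mM and 1.63, 2.53 and 0.921 at 300 mM. All NS libraries lay above all other libraries, and ND lay between NS and most sorbitol libraries. Slc1a6 fell at 250 mM, with a log2 change of -2.66 ± 0.61 (edgeR adjusted p = 0.0242), and at 300 mM, with -3.16 ± 0.66 (adjusted p = 0.00995), the lowest value of any member. The value was -2.18 ± 0.60 at 200 mM (adjusted p = 0.129, or 0.0357 with replicates as a block) and -1.03 ± 0.54 in ND (adjusted p = 0.773). It was lower with sorbitol than in ND by a log2 change of -1.64 ± 0.51 (adjusted p = 0.0488). Counts were low, since 3 counts equal 1.31 to 3.10 CPM. The 300 mM call was lost without 300 mM replicate 3 (adjusted p = 0.0509), the 250 mM call without any of 5 of the 6 libraries, all but NS replicate 3 (adjusted p = 0.0559 to 0.118), and the call against ND without any of 9 of the 12 libraries (up to 0.151), the exceptions being 200 mM replicate 2 and 250 mM replicates 2 and 3.

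The windows upstream of these genes are shown because their genes moved in opposite directions. The Slc1a1 window is chr19:28834885-28835134 and the Slc1a6 window chr10:78780246-78780495, both on the plus strand of GRCm38.p6 and from RefSeq, written 5′ to 3′. By the search on both strands for TGGAAA and for TGATGNAA, the composite site of ATF4 and C/EBP factors, neither window held a match, so no letters are in capitals.
Slc1a1: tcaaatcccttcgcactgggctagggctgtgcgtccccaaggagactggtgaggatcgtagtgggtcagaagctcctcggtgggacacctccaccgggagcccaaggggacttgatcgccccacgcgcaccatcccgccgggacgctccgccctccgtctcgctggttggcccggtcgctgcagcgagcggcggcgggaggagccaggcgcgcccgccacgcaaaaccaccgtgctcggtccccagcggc
Slc1a6: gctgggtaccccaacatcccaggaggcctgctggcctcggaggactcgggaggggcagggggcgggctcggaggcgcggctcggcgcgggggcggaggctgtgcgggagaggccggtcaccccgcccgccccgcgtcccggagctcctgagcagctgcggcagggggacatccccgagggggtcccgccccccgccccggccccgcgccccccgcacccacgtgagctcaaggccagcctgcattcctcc
Their GC content was 70.4% for Slc1a1 and 78.8% for Slc1a6, against a median of 52.4% over all windows.

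The neutral Slc1 carriers passed no comparison in the fit of all 15 libraries. Slc1a4 (ASCT1), an exchanger of alanine, serine and cysteine, stood at 64.97, 51.8 and 40.2 CPM in NS and 79.05, 42.97 and 31.8 in ND. In sorbitol Slc1a4 was at 86.6, 60.7 and 62.9 CPM at 200 mM, 67.6, 86.5 and 76.8 at 250 mM and 83.8, 80.03 and 90.3 at 300 mM, and all libraries at 250 and 300 mM lay above NS (log2 change 0.54 ± 0.30 and 0.68 ± 0.30, edgeR adjusted p = 0.301 and 0.173). Slc1a5 (ASCT2), the glutamine exchanger, stood at 62.6, 60.9 and 51.8 CPM in NS and 68.2, 32.2 and 58.9 in ND. In sorbitol Slc1a5 was at 97.6, 61.7 and 59.6 CPM at 200 mM, 70.7, 66.7 and 91.9 at 250 mM and 71.3, 69.1 and 59.9 at 300 mM. Its 250 mM libraries lay above NS, with a log2 change of 0.38 ± 0.28 (adjusted p = 0.439), and its 300 mM libraries overlapped with NS. Slc1a3 (EAAT1), too low to be tested, had 7 counts in NS, 18 in ND, 19 at 200 mM, 30 at 250 mM and 13 at 300 mM.

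The heavy chain Slc3a2 and the light chains it carries showed wide spread within groups. Slc3a2 was measured at 158, 234 and 339.9 CPM in NS and 219, 328 and 409 in ND. In sorbitol Slc3a2 was at 152, 208 and 299 CPM at 200 mM, 363, 259.6 and 249 at 250 mM and 268, 305 and 286 at 300 mM. Each of the other groups overlapped with NS, and its log2 change ranged from -0.15 at 200 mM to 0.39 in ND. Slc7a5 (LAT1), the leucine and large neutral amino acid exchanger, was at 51.1, 70.9 and 66.03 CPM in NS and 60.1, 96.7 and 75.6 in ND. In sorbitol Slc7a5 was at 29.4, 80.6 and 76.8 CPM at 200 mM, 74.4, 129 and 131 at 250 mM and 51.1, 94.4 and 88.4 at 300 mM. The 250 mM libraries lay above NS (log2 change 0.83 ± 0.36, edgeR adjusted p = 0.187, or 0.0185 with replicates as a block), and the 300 mM libraries did not separate from NS. Slc3a2 exceeded the sum of its 5 measured light chains by 2.31 to 3.23-fold in NS, 2.497 to 3.17-fold in ND, 2.19 to 2.93-fold at 200 mM, 1.59 to 3.57-fold at 250 mM and 2.29 to 3.51-fold at 300 mM. These ranges overlap, although replicates 2 and 3 at 200 mM and at 250 mM and replicate 3 at 300 mM lay below every NS and ND library. The remaining sorbitol libraries lay within or above the NS and ND range.

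Slc7a11 (xCT), the cystine and glutamate exchanger that feeds glutathione synthesis, was at 6.69, 10.9 and 20.5 CPM in NS and 17.5, 8.36 and 27.1 in ND. In sorbitol Slc7a11 was at 4.48, 1.05 and 13.1 CPM at 200 mM, 3.67, 2.38 and 8.71 at 250 mM and 5.44, 1.68 and 7.37 at 300 mM. Within each group replicate 3 was the highest and, outside NS, replicate 2 the lowest. It was lower with sorbitol than in ND by a log2 change of -1.75 ± 0.51 (edgeR adjusted p = 0.035), and the ranges of ND and the sorbitol groups overlapped except at 300 mM. Against NS the values were -1.34 ± 0.70 at 250 mM and -1.33 ± 0.70 at 300 mM (adjusted p = 0.273 and 0.257), and in ND 0.54 ± 0.62 (adjusted p = 0.918). The call against ND was lost without any of 6 of the 12 libraries, namely ND replicates 1 and 3, replicate 1 at 200 mM, replicates 1 and 2 at 250 mM and replicate 2 at 300 mM (adjusted p = 0.0501 to 0.183).

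Its upstream window is shown because it holds 2 matches to the composite site of ATF4 and C/EBP factors, TGATGNAA, out of the 250 bases at chr3:50443614-50443863, minus strand, GRCm38.p6 from RefSeq.
Slc7a11: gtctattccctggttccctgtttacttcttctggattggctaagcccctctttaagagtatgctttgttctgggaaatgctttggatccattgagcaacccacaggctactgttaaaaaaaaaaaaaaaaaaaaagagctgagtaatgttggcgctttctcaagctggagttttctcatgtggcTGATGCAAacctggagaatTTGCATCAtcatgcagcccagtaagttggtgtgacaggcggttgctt
The matches, in capitals, lie 66 to 59 bases before the start on the gene's strand and 47 to 40 bases before it on the other strand. The motif was found on either strand in 3.45% of all 32851 windows and in 8.57% of the 35 member windows, in Slc7a11 and Slc7a7. The remaining light chains were Slc7a6 (y+LAT2), at 7.27 to 16.1 CPM in NS and 14.1 to 18.4 at 300 mM, and the untested Slc7a8 (LAT2), with 5 counts in NS and 21, 26, 20 and 13 in ND and at the rising doses, and Slc7a7 (y+LAT1), with 6, 11, 11, 10 and 20.

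**Figure D4:**
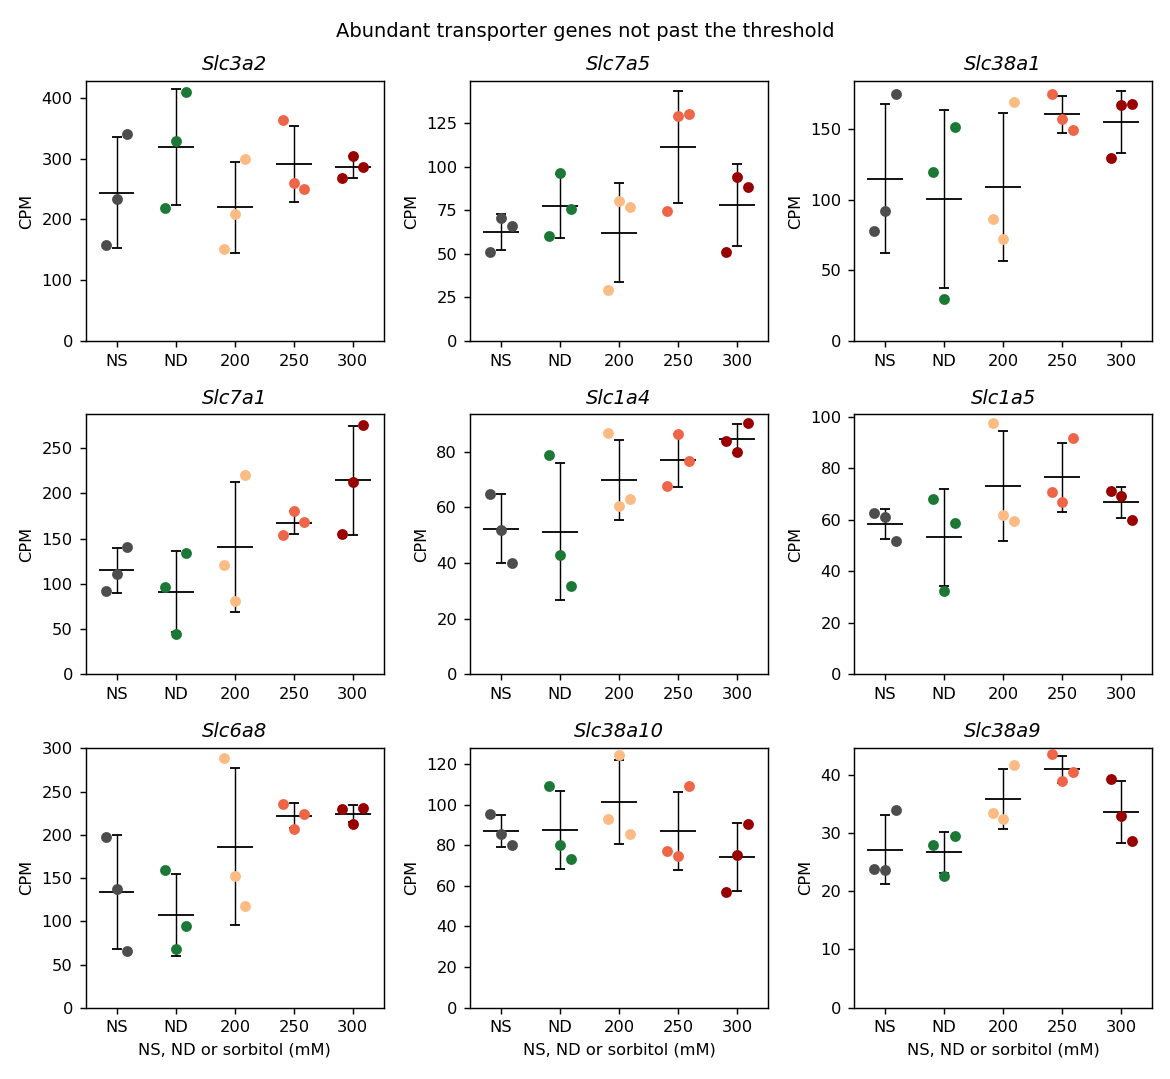
CPM of 9 abundant transporter genes that passed no comparison in edgeR's fit of all 15 libraries without a block, in each library (points), with the group mean (line) and SD (bar, n = 3). Slc7a1 and Slc6a8 libraries at 250 and 300 mM all lie above the NS libraries, at no less than 154 CPM for Slc7a1 and 207 CPM for Slc6a8, while Slc3a2 and Slc38a10 overlap with NS in every group.

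Of the sodium- and chloride-coupled Slc6 members, Slc6a8, which brings in creatine, itself a compatible osmolyte, was measured at 198, 137 and 66.03 CPM in NS and 159.5, 68.04 and 94.7 in ND. In sorbitol Slc6a8 was at 289, 153 and 118 CPM at 200 mM, 236, 207 and 224 at 250 mM and 229.6, 213 and 231 at 300 mM. Replicate 1 was the highest and replicate 3 the lowest NS library, and the 250 and 300 mM libraries lay above all of them. The log2 change was 0.73 ± 0.38 and 0.74 ± 0.38 against NS (edgeR adjusted p = 0.274 and 0.242) and 0.96 ± 0.33 for the sorbitol groups against ND (adjusted p = 0.0736), none past the threshold. The value against ND passed with the replicate block (adjusted p = 0.00464), without a low count filter (0.00896), with DESeq2 (0.0387) and with the compared groups alone (0.0397). With the block alone, the values against NS passed (edgeR adjusted p = 0.041 at 250 mM and 0.0342 at 300 mM). That fit called 17.9 and 19.9% of all genes. Slc6a9 (GlyT1), a glycine carrier, was low at 4.78, 2.73 and 4.46 CPM in NS and 9.94, 0 and 7.96 in ND. In sorbitol Slc6a9 was at 8.96, 2.09 and 10.6 CPM at 200 mM, 6.28, 6.35 and 3.17 at 250 mM and 13.1, 9.27 and 5.53 at 300 mM, and its 300 mM libraries lay above NS (log2 change 1.20 ± 0.68, adjusted p = 0.295). Slc6a9 also had the highest value of any member in ND (0.69 ± 0.70, adjusted p = 0.899), with one ND library at 0. Slc36a1 (PAT1), a lysosomal and plasma membrane proton-coupled carrier, spanned 21.02 to 71.4 CPM in NS and 33.2 to 38.8 at 300 mM. Among the Slc43 uniporters, Slc43a3, a purine nucleobase carrier, was at 2.39, 3.64 and 10.7 CPM in NS and 5.68, 7.16 and 8.75 in ND. In sorbitol Slc43a3 was at 6.47, 5.23 and 18.8 CPM at 200 mM, 11, 25.4 and 15.05 at 250 mM and 6.53, 16.01 and 11.1 at 300 mM, with the highest log2 value of any member at 250 mM (1.68 ± 0.59, adjusted p = 0.11). That value was 2.52 without NS replicate 3 (adjusted p = 0.0209), and it also passed with the replicate block (0.017) and without a low count filter (0.0382). Slc43a2 (LAT4) spanned 26.8 to 47.3 CPM in NS and 23.03 to 32.6 at 300 mM.

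The 12 members too low to be tested had 15 to 97 counts over all libraries, against at least 130 for a tested member. Slc43a1 (LAT3) was the most abundant, with 31 counts in NS, 22 in ND and 20, 13 and 11 at the rising doses. Slc36a2 (PAT2) had 7, 12, 5, 1 and 1 in the same order, and Slc38a8 had 3, 0, 8, 12 and 5. Slc6a15, a neutral amino acid carrier, had 2 counts in NS, 1 in ND and 7, 12 and 9 with sorbitol, and Slc6a13 (GAT2) had 6, 17, 12, 19 and 11. Slc38a3 (SNAT3), Slc38a5 (SNAT5) and Slc6a2 (the noradrenaline carrier, identified by its symbol) had between 2 and 11 counts in every group. Slc38a5 and Slc6a2, with 15 and 16 counts in all, lay just inside the minimum, and Slc6a7 and Slc7a14, with 12 each, just outside it. These 12 members are called untested because the filter on low counts kept them out of the fit above. Without that filter all 34 members were tested, and of these 12 Slc7a2 alone passed, at 250 mM, where 4.74% of all genes were called.

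**Figure D5:**
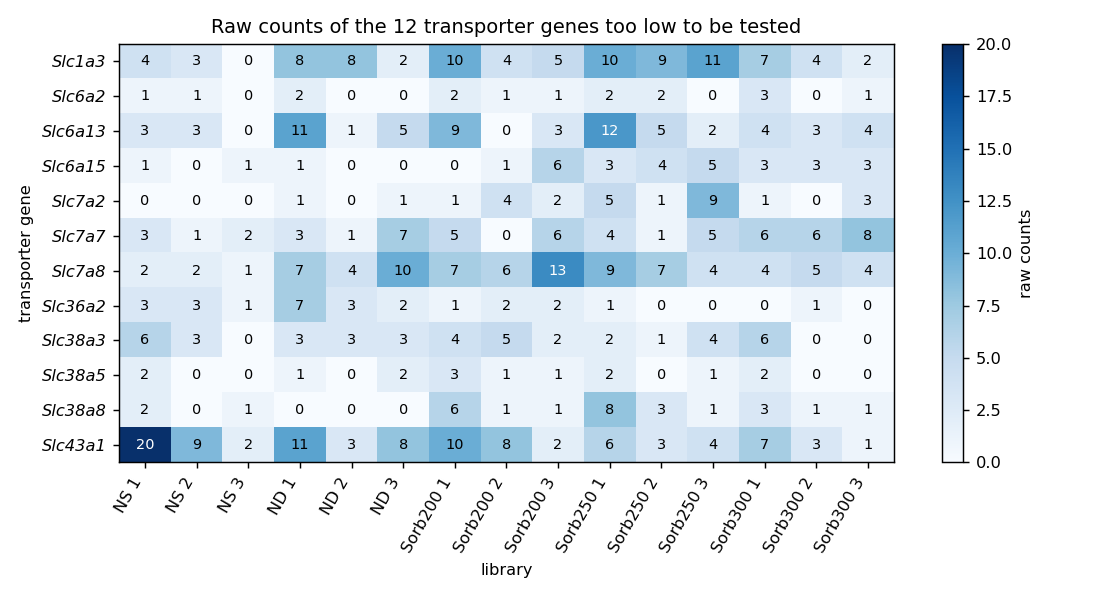
Raw counts of the 12 untested transporter genes (vertical axis) in each of the 15 libraries (horizontal axis), with colour giving the count. The largest cell is 20 counts, for Slc43a1 in NS replicate 1, and Slc7a2 is 0 in all NS libraries.

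Genes of the amino acid response were read beside the carriers. Of 18 tested genes of an ATF4 and amino acid response list, 0 passed against NS in ND, at 200 mM or at 250 mM, and 1 fell at 300 mM, the lipoprotein receptor Vldlr (-2.20 ± 0.55, edgeR adjusted p = 0.0233), while 2, 1, 2 and 4 had an unadjusted p under 0.05 and DESeq2 called 0, 0, 0 and 2. In the same order, edgeR called 0.0319, 0.586, 4.47 and 7.89% of all genes. The list medians in this order were 0.11, -0.09, -0.08 and -0.15 on the log2 scale. Atf4 itself was at 951 ± 338 CPM in NS and 719 ± 162 CPM at 300 mM (SD, n = 3; log2 change -0.40 ± 0.30, adjusted p = 0.437). Asns, the asparagine synthetase, was at 161 ± 23.8 CPM in NS and highest at 250 mM, at 229 ± 28.5 (0.50 ± 0.20, edgeR adjusted p = 0.162). Its means were 207 ± 25.0 CPM in ND, 206 ± 17.2 at 200 mM and 204 ± 21.7 at 300 mM. The pseudokinase Trib3 was at 227 ± 59.9 CPM in NS and highest at 300 mM, at 296 ± 70.5 (0.38 ± 0.29, adjusted p = 0.446). Its means were 243 ± 89.8 CPM in ND, 222 ± 30.6 at 200 mM and 236 ± 46.8 at 250 mM. Against ND, the sorbitol groups were lower in 3 genes of the list, beside 5.85% of all genes. These were the stress genes Ddit3 (-1.39 ± 0.40, edgeR adjusted p = 0.0334) and Ddit4 (-1.41 ± 0.32, adjusted p = 0.00916) and Vldlr (-1.61 ± 0.39, adjusted p = 0.0132). Ddit3 was at 12.1 ± 5.58 CPM in NS, 27.7 ± 13.2 in ND and 16.0 ± 11.2, 9.23 ± 3.03 and 7.64 ± 2.35 at the rising doses. Ddit4 was at 996 ± 240, 2039 ± 653, 1203 ± 871, 728 ± 126 and 521 ± 85.9 CPM in the same order. Both means were higher in ND than in NS, a comparison in which 0 genes of the list passed.

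Of 15 tested genes of serine, glycine and proline synthesis and related steps, 2 passed at 300 mM, beside 7.89% of all genes. Of the 2, Bcat1, the cytosolic branched-chain aminotransferase, rose from 257 ± 20.02 CPM in NS to 471 ± 52.3 CPM (0.87 ± 0.23, edgeR adjusted p = 0.0304). The mitochondrial carriers Slc25a38 (glycine) and Slc25a44 (branched-chain amino acids) rose at 300 mM among 11 tested carriers of other families, by 1.21 ± 0.34 and 1.07 ± 0.30 (adjusted p = 0.0417 and 0.0396). Of all genes 3.23% were called higher at this dose. Of 20 cytosolic aminoacyl-tRNA synthetases 0 passed edgeR's test in any of the 6 comparisons, with medians of 0.02 to 0.16, between 0 and 3 with an unadjusted p under 0.05 and 1 DESeq2 call, at 300 mM. The share of all genes called by edgeR in these comparisons ran from 0.0319 to 10.5%. Of 14 tested genes of mTORC1 amino acid sensing, 0 passed against NS (1 to 4 with an unadjusted p under 0.05, and DESeq2 called 2 at 250 mM and 1 at 300 mM). Against ND 3 were lower with sorbitol, beside 5.85% of all genes. The 3 were the leucine sensor family member Sesn3 (-1.60 ± 0.30, edgeR adjusted p = 0.00271), the folliculin partner Fnip1 (-1.29 ± 0.28, adjusted p = 0.00724) and the arginine sensor Gatsl3 (CASTOR1, -1.20 ± 0.35, adjusted p = 0.0376). Sesn3 was at 25.6 ± 4.95 CPM in NS, 58.9 ± 21.4 in ND and 16.8 ± 6.34 at 300 mM. Fnip1 was at 126 ± 79.3, 174 ± 37.2 and 65.0 ± 6.85 and Gatsl3 at 33.4 ± 16.7, 44.3 ± 22.7 and 17.7 ± 3.62 in the same order.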

How the data were processed

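RNA of 15 libraries in 5 groups of 3 was sequenced by a QuantSeq 3′ protocol, per the labels. Base calling with CASAVA 1.8.2, STAR alignment to mm9, HTSeq counting and the authors' own edgeR tests are named in the submitters' processing notes. With other versions, the annotation and the strand setting not given in the sources used here, overlapping genes cannot be told apart. The deposited counts are whole numbers per gene symbol in 4 tables, with identical NS values in each and 0 columns left without a sample. The authors' deposited log2 fold changes and their p-value and FDR columns were used only to list the authors' calls.

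Counts were tested with edgeR 4.0.16 (glmQLFit and glmQLFTest) in R 4.3.3 with TMM scaling. Low genes were removed by filterByExpr (at least 10 counts, and 15 in total), and p-values were adjusted by Benjamini-Hochberg with a threshold of 0.05. All 15 libraries entered 1 fit without a block (9390 genes), and the slope per 50 mM used the 9 sorbitol libraries (8928 genes). The SE is the absolute log2 change over the square root of F. The tests were run on simulated data first. Alternatives were DESeq2 1.42.0, RLE factors, library totals, no filter, the replicate block, the compared groups alone, replicates 2 and 3 alone and each library left out. Pairs of libraries of 1 group differed beyond sampling noise (chi-square over its degrees of freedom, 2.45 to 29.3). Numbers pair samples where all 3 same-numbered deviations from the group means correlate above 0.1. This held for NS with 200 mM (0.69, 0.12 and 0.63) and for 3 other of the 10 pairs of groups (ND with 200 mM, 200 with 250 mM and 250 with 300 mM).

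Values in every library are given for 11 listed carriers, for members past the threshold and for the highest and lowest log2 change of each comparison. Of the pathway lists, Atf4, Asns, Trib3 and Ddit3 and up to 3 called members per comparison are named, and 1 of the called genes is not reported here. The members and lists were chosen with earlier results of these data known. Upstream windows came from a RefSeq table of GRCm38.p6, another build than the authors' mm9, and served for letters only. In GENCODE M21, the deposited identifiers of 3 of the matching symbols belong to another symbol. The p-values measure the spread between libraries described as biological triplicates, and floors cover counting error only.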

Additional observations from a re-analysis of the deposited data

How the results depend on the processing

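LIF withdrawal and the slope over dose gave 0 member calls in every setting. The share of all genes called stands in parentheses after each count. At 200 mM, where 0 members passed, 1 passed without a low count filter (0.925%), 2 with DESeq2 (1.71%) and 2 with the replicate block (2.85%). At 250 mM the count of 3 (4.47%) became 4 without the filter (4.74%), where Slc7a2 and Slc43a3 were added and Slc38a4 was lost. It became 8 with the block (17.9%), which added Slc43a3, Slc6a8, Slc7a4, Slc7a5 and Slc7a11. The count was 0 in replicates 2 and 3 alone (0.297%) and 1 with the compared groups alone (3.39%). At 300 mM the count of 4 (7.89%) became 2 without the filter (5.97%), 7 with the block (19.9%) and 1 in replicates 2 and 3 alone (1.23%). The block added Slc6a8, Slc7a1 and Slc38a4 at this dose. Against ND the count of 5 (10.5%) became 3 when scaled by library totals alone (9.71%), and it became 7, with Slc6a8 and Slc7a1 added, with DESeq2 (13%), without the filter (7.75%) and with the block (19.5%). Leaving out 1 library gave 0 to 1 members at 200 mM (0.124 to 1.54%), 0 to 5 at 250 mM (0.866 to 14.6%) and 1 to 4 at 300 mM (2.16 to 15.4%). It gave 3 to 6 against ND (5.53 to 11.6%) and 0 in the other comparisons (0 to 0.762%). Without NS replicate 3 the counts at 200 and 250 mM were 1 (1.54%) and 5 (14.6%), and without any other library of that comparison 0 passed at 250 mM (0.866 to 1.36%). At 300 mM 2 passed without NS replicate 1 (3%) or 2 (2.58%) or without 300 mM replicate 1 (4.2%) or 2 (2.16%), and 1 without 300 mM replicate 3 (2.74%). Against ND 3 passed without ND replicate 2 (5.53%), 200 mM replicate 1 (10.6%), 250 mM replicate 1 (8.44%) or 300 mM replicate 2 (8.16%). By the correlation above 0.1 the numbers paired NS with 200 mM but not with ND, 250 or 300 mM, and ND with 200 mM but not with 250 or 300 mM. The block values at 250 and 300 mM against NS, and those against ND, thus rest in whole or in part on numbers that did not pair by this rule. Every library correlated best with its own number in 3 of 10 pairs of groups, ND with 200 mM among them. None of the members given with values in every library changed the sign of a called value in any setting. Among these members and settings, 60 calls were lost and 33 gained. The other members, Slc7a2 among them, are not part of these counts. The cause of these shifts was not tested, beyond the smaller number of libraries or genes in those settings that drop some. Depth limits the lowest members, since 3 counts equal 1.31 to 3.10 CPM.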

Other observations

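The balance between the cationic carriers was described after the values were seen. The ratio of Slc7a3 to Slc7a1 was 1.37 to 1.43 in the NS libraries, 1.601 to 2.86 in ND, 1.91 to 2.64 at 200 mM, 2.39 to 2.62 at 250 mM and 1.997 to 2.64 at 300 mM, so the NS libraries were the lowest of all 15 and lay close together although Slc7a3 itself ranged from 129 to 202 CPM among them. No test was made of this ratio. The authors' deposited tables called Slc1a1 higher and Slc1a6 lower at 200 mM, Slc7a2, Slc7a3 and Slc38a4 higher and Slc1a6 lower at 250 mM, and Slc1a1 and Slc7a3 higher and Slc1a6 and Slc7a4 lower at 300 mM, and called 0 members in ND. Slc7a2 is the call of the authors' deposited table that the test with the filter could not make, because its 15 counts at 250 mM against 0 in NS fell under the filter on low counts. Without that filter Slc7a2 passed at 250 mM here as well.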
